A study of Mus musculus with 10 samples.

Results

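The promoters of cytosolic ribosomal protein genes were examined in an ATAC-seq study of invariant natural killer T (iNKT) cells, in which a transposase cuts open DNA and each cut is counted as an insertion. Members were the listed regions holding the annotated start of a protein-coding gene named Rpl or Rps with a digit, or Rplp0, Rplp1, Rplp2 or Rpsa; ribosomal S6 kinase and ribosomal-protein-like genes were left out. Of 85 genes matching this rule, 73 had their start in a region, each in a region of its own, out of 94823 regions in all and 9916 with a protein-coding gene start. They comprised 40 large subunit genes, 29 small subunit genes, the 3 stalk genes and Rps19bp1, which encodes a partner of the S19 protein and not a ribosomal protein.

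The ribosome is built from ribosomal RNA and a set of ribosomal proteins, so the genes for the small and large subunits are needed together in every growing cell. Their promoters are compact and typically lie at unmethylated CpG-rich starts. Transcription of most of them begins within a terminal oligopyrimidine tract, a run of C and T that puts the translation of the messages under control of mTOR signalling. In lymphocytes the demand for ribosomes rises when the cells are activated and grow.

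The cells were sorted from thymi of BALB/c animals and of the SKG strain, bred on that background with a hypomorphic Zap70, the kinase that relays signals from the T cell receptor. The subsets were sorted as iNKT1 (CD27+ CD122+) and iNKT2 (CD27+ CD122-), with 2 libraries of each genotype for iNKT1 and 3 of each genotype for iNKT2. The mice were young adults, matched for age within an experiment. Whether each library came from its own mouse is not given in the sources used here, so p-values measure the spread between libraries. No iNKT17 cells were sorted. A difference between the sorted populations cannot be split into fewer cells with an open promoter and fewer cuts per cell.

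The libraries held 14988590 to 36342635 insertions in the listed regions, and a member held at least 132 insertions in every library. The labels were checked with promoters of marker genes. All 5 iNKT1 markers (Tbx21, Il2rb, Cxcr3, Klrd1 and Ifng) were lower in iNKT2 cells of both genotypes, and Ifng, for example, fell from 61.3 ± 0.030 CPM (SD, n = 2) to 8.72 ± 2.39 (n = 3) in BALB/c (edgeR adjusted p = 1.9e-08). Of 5 iNKT2 markers, Il17rb was higher in iNKT2 cells of both genotypes (log2 change 1.08 and 1.44), Ccr7 passed in SKG, Il4 was lower in SKG iNKT2 (adjusted p = 0.0063), and Zbtb16 and Gata3 did not pass. The starts of the iNKT17 genes Il17a, Ccr6 and Il23r summed to 0.333 and 0.353 CPM in BALB/c and SKG iNKT1 and to 10.6 and 7.47 CPM in the iNKT2 groups. The part of these cells in the results that follow was not tested. All 6 T cell markers had a region at the start. They summed to 172 and 169 CPM in BALB/c and SKG iNKT1, and to 95.5 and 108 CPM in the iNKT2 groups. In BALB/c, Cd2 (log2 change −3.54), Lck, Cd5 and Cd3e were lower in iNKT2 at edgeR adjusted p under 0.01, and Cd3d and Cd3g did not pass. None of 5 immature thymocyte, 4 B cell, 4 epithelial and 3 erythroid markers had a region at the start. Of 4 myeloid markers 1 did (Itgam, group means of 0.348 to 2.92 CPM).

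Stretches of 8 of the promoters are given, chosen by the rule for named genes: Rpl13a and Rplp0 from the set of textbook roles, Rpl19 with the lowest accessibility, Rps16 in the middle, Rpl13 and Rpl7a with the lowest change and the smallest adjusted p between subsets, and Rps6 and Rpl38, genes long studied for translational control. Each runs 5′ to 3′ on the gene strand from 80 bases before to 30 bases from the RefSeq start (GRCm38.p6), and capitals mark the longest run of C and T in the stretch. The start itself is the base at position 81.
Rpl13a, chr7:45128716-45128825, minus strand: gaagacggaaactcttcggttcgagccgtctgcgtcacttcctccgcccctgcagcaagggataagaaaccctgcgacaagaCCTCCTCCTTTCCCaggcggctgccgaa
Rplp0, chr5:115559387-115559496, plus strand: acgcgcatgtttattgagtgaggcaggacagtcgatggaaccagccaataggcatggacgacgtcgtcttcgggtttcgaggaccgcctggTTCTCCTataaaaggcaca
Rpl19, chr11:98026630-98026739, plus strand: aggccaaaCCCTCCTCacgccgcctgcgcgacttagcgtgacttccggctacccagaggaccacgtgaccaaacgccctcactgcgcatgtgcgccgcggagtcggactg
Rpl13, chr8:123102270-123102379, plus strand: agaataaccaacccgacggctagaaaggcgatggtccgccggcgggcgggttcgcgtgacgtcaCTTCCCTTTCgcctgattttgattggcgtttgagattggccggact
Rpl7a, chr2:26910727-26910836, plus strand: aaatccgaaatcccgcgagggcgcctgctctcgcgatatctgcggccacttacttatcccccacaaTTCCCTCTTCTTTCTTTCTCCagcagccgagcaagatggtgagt
Rps16, chr7:28350609-28350718, plus strand: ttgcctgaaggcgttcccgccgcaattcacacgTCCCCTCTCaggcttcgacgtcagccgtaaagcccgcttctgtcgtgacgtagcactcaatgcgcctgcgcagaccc
Rps6, chr4:86857338-86857447, minus strand: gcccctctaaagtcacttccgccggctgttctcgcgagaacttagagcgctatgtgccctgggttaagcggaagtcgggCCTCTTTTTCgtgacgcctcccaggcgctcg
Rpl38, chr11:114668500-114668609, plus strand: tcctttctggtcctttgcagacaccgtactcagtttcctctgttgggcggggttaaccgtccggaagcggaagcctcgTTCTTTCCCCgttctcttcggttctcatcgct

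The pyrimidine run crossed the RefSeq start in Rps6 (10 bases), Rpl38 (10 bases) and Rpl7a (21 bases), and began at position 3 from it in Rpl13a (14 bases). In Rpl13 the run of 10 bases began 16 bases before the start. In Rpl19 and Rps16 the longest run, of 8 and 9 bases, began 72 and 47 bases before the start, and in Rplp0 a run of 7 bases began at position 12. RefSeq promoters were at hand for 55 of the 73 members, and these sequences are credited to RefSeq.

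Across all members the run of pyrimidines was a feature of the gene strand. In windows of 150 bases on either side of the GENCODE gene start, 50 of 73 members (68.5%) held a run of at least 10 C or T on the gene strand, against 39.0% of 10829 other protein-coding gene starts in regions. On the opposite strand the shares were 35.6% and 39.1%. The letters CTTTCC or CTCTTTC occurred on the gene strand of 37.0% of members and 13.9% of other starts, and on the opposite strand of 16.4% and 13.6%. These windows include sequence after the gene start, since the annotated gene start often lies upstream of the tract.

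Other promoter strings were searched from 250 bases before to 50 after the gene start. The ETS string CCGGAAG (both strands) was in 21 members (28.8%) and 19.01% of other starts, and the YY1 string AAGATGGC (both strands) in 5 members (6.85%) and 4.65%. The SP1 string GGGCGG (both strands) was in 35 members (47.9%) and 66.5% of other starts, and CCAAT (both strands) in 31.5% and 39.5%. The TATA string TATAAA (gene strand) was in 5 members (6.85%) and 4.12%, the E-box CACGTG in 13.7% and 10.9%, and the NRF1 string GCATGCGC (both strands) in 4.11% and 5.74%. A match is a description of the letters and not a measured binding site.

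The member regions had a median width of 788 bp (311 to 2437 bp), against 664 bp for other protein-coding promoters and 343 bp for all regions. Regions were as narrow as 300 bp, below the uniform size stated for them before merging, and CPM per kb rests on the deposited widths. Their median GC content was 59.8%, against 61.7% and 48.7%. Ribosomal protein genes have many processed pseudogenes, and 34 of the 73 members (46.6%) held at least 1 window of 50 bases with another exact copy in the genome, against 9.61% of other promoters. The copied share reached 23.8% of windows in Rpl37a and 20.6% in Rpl36, and was at least 10% in 9 members. Only read pairs with a unique alignment were kept by the authors, and how many insertions were lost in these windows was not measured.

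In 11 members the region also held the start of another protein-coding gene, so the cuts cannot be assigned to one of the pair. The first 5 by symbol were Rpl12 with Lrsam1, Rpl15 with Nkiras1, Rpl35a with Iqcg, Rpl7 with Rdh10 and Rpl7a with Med22. The 12 genes matching the rule with no region at the gene start were Rpl35, Rpl3, Rps2, Rps10, Rpl17, Rps27rt and 6 genes with pseudogene-like symbols (Rpl10-ps3, Rpl36-ps4, Rpl36a-ps1, Rpl9-ps1, Rpl9-ps6 and Rps12-ps3). The gene start of Rpl35 was 65 bp from the nearest region and that of Rpl3, which encodes a protein of the peptidyl transferase centre, 425 bp, while those of Rpl17, Rps2 and Rps10 were 1206 to 1459 bp away. Rpl3, Rpl17, Rps2 and Rps10 each had another coding transcript start in a region.

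Levels are given as CPM, counts relative to the library total after TMM scaling, and as CPM per kb where regions are compared with each other. The median member had 54.8 CPM per kb, the mean over the 4 groups, against 46.8 for other protein-coding promoters and 8.11 for all regions, and 52 of 73 members lay above the median of promoters. Of the 73, 5 lay above percentile 90 of promoters and 3 under percentile 25.

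Rps16 stood in the middle at 54.8 CPM per kb. Rpl19, a large subunit protein that contributes to a bridge between the subunits, had the lowest level, 19.1 CPM per kb (percentile 19.1). Rpl19 measured 27.7 CPM in both BALB/c iNKT1 libraries, 23.4 and 26.2 in SKG iNKT1, 14.2, 13.6 and 14.8 in BALB/c iNKT2, and 25.9, 18.6 and 17.9 in SKG iNKT2. The BALB/c iNKT2 libraries lay below all others. The order of the members by CPM per kb was much the same from group to group, with Spearman's rho of 0.98 between genotypes in each subset and 0.89 to 0.94 between subsets (n = 73 members, which share region widths and base composition in every group).

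**Figure D1:**
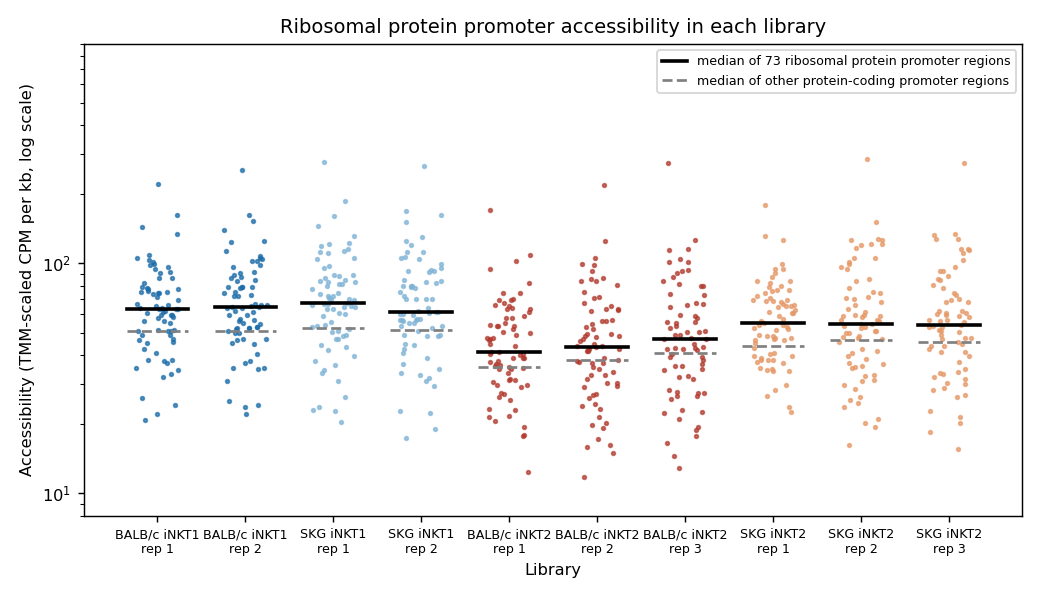
Accessibility of the 73 ribosomal protein promoter regions in each of 10 libraries, as TMM-scaled CPM per kb on a log scale; each point is a region, black lines are the members' medians and dashed grey lines the medians of other protein-coding promoter regions. The members' median was 61.3 to 67.6 in the 4 iNKT1 libraries, 41.0 to 46.8 in BALB/c iNKT2 and 53.8 to 55.2 in SKG iNKT2, and the grey lines moved with it.

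The members varied little between libraries of a group. Their median within-group SD was 0.13 on the log2 scale, against 0.17 for other promoters and 0.24 for all regions, and the largest was 0.32, in Rpl13. The sets also differed in level, with a median of 45.7 CPM for members, 34.6 for other promoters and 3.00 for all regions. The spread was not compared at matched levels. From the lowest to the highest group mean the median member differed 1.55-fold, and 67 of 73 members (91.8%) differed under 2-fold, as did 80.1% of other promoters and 40.8% of all regions. The highest mean was in an iNKT1 group for 66 members and the lowest in BALB/c iNKT2 for 70. The shares of other promoters with this order are not given, so these counts have no background. In the fits described below, 7587 of 9843 other promoters had a log2 change below 0 from iNKT1 to iNKT2 in BALB/c. From BALB/c to SKG iNKT2, 8391 of them were above 0.

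Taken as a share of all insertions in regions, with no TMM factor, the members held 0.346% and 0.361% in BALB/c iNKT1, 0.374% and 0.355% in SKG iNKT1, 0.310%, 0.309% and 0.322% in BALB/c iNKT2, and 0.356%, 0.354% and 0.347% in SKG iNKT2. The widest Wilson 95% interval spanned 0.006 percentage points and covers counting error only. BALB/c iNKT2 was lower than every other library on this scale, and SKG iNKT2 overlapped with both iNKT1 groups.

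Each comparison was tested with edgeR over all 94823 regions, and a call required a change of at least 4-fold and a p under 0.01 after Benjamini-Hochberg adjustment. No member was called in any of the 5 comparisons. Changes that passed adjusted p under 0.01 at any size were counted separately.

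The first comparison asked how the subsets differ in BALB/c. In iNKT2 cells 40 of 73 members were lower and 1, Rps14, was higher than in iNKT1 cells at adjusted p under 0.01, and the median log2 change was −0.51, a fall of 29.99%. The backgrounds over all regions were 23.4% lower, 25.7% higher and 21.9% called at 4-fold. Of the other protein-coding promoters 38.1% were lower and 7.12% higher, with a median of −0.35. The members' median lay 0.14 to 0.20 below that of other promoters in every alternative that left out no replicate.

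The size of this fall depended on the scaling. TMM factors were 0.893 to 0.921 in iNKT1 libraries and 0.984 to 1.19 in iNKT2 libraries. With library totals the median was −0.23, with 15 members lower and 2 higher, and with TMM factors from the other promoters −0.17, with 8 lower and 2 higher. Quantile scaling gave −0.14, with 13 lower and 4 higher, and removing the GC trend gave −0.30, with 22 lower and 1 higher. The same settings put the median of all regions at 0.34, 0.41, −0.0023 and 0.03, against 0.06 with TMM over all regions, and that of other promoters at −0.07, −0.0042, −0.0039 and −0.10. No scaling turned the median of the members. The shares of other promoters and of all regions that passed under these scalings are not given, so the counts of members have no background.

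**Figure D2:**
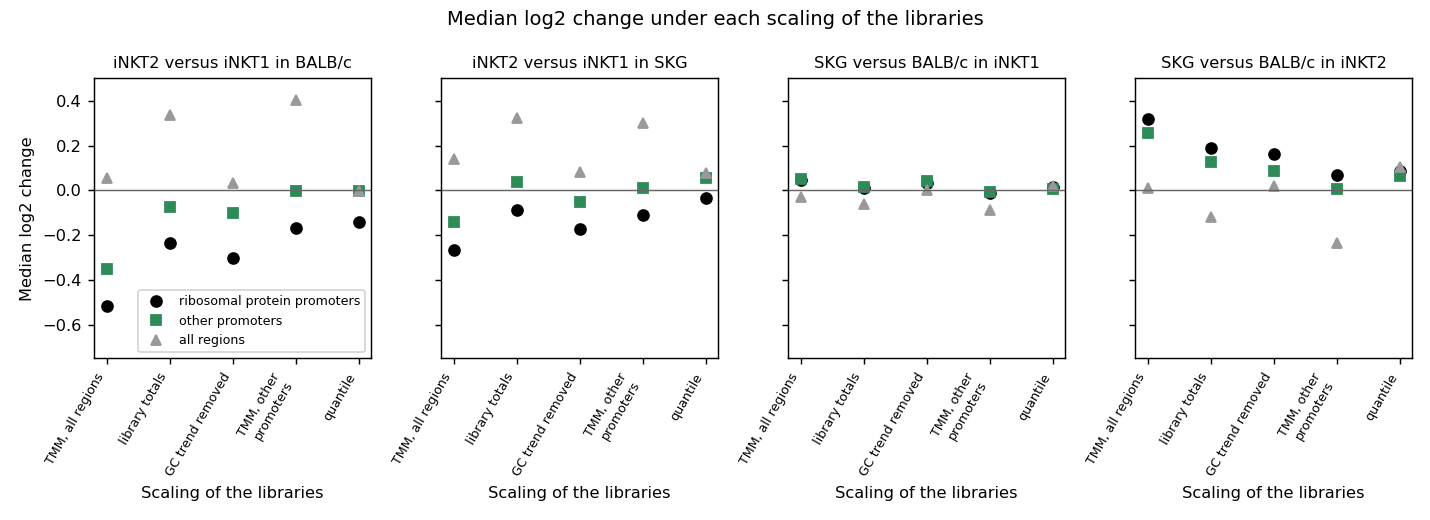
Median log2 change of the ribosomal protein promoters (circles), other protein-coding promoters (squares) and all regions (triangles) under 5 scalings of the libraries, in 4 comparisons. Between subsets the circles stay below the squares in both genotypes, while the distance from 0 shrinks from −0.51 with TMM over all regions to −0.14 with quantile scaling in BALB/c.

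Rps14, a small subunit protein whose loss of one copy causes a macrocytic anaemia in people, was the exception in direction. Rps14 measured 11.7 and 13.4 CPM in BALB/c iNKT1, 12.8 and 10.8 in SKG iNKT1, 17.5, 25.1 and 23.8 in BALB/c iNKT2, and 19.6, 26.5 and 24.5 in SKG iNKT2. All 6 iNKT2 libraries lay above all 4 iNKT1 libraries. The log2 change was 0.82 ± 0.19 (SE; adjusted p = 0.0014) in BALB/c and 0.99 ± 0.20 (adjusted p = 0.00058) in SKG, and it passed in both genotypes under all 5 scalings. Without BALB/c iNKT1 replicate 1, no member was higher at adjusted p under 0.01 in BALB/c, and without SKG iNKT1 replicate 2 none was in SKG.

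Among the large subunit genes, 20 of 40 were lower in BALB/c iNKT2 and none was higher, with a median of −0.51. Rpl13 had the lowest change: it measured 28.8 and 33.9 CPM in BALB/c iNKT1 and 16.3, 11 and 12.5 in BALB/c iNKT2, a log2 change of −1.24 ± 0.22 (adjusted p = 0.00019). Rpl7a, whose region also holds the start of Med22, had the smallest adjusted p: it measured 48.1 and 49.3 CPM against 24.6, 19.1 and 21.2, a change of −1.17 ± 0.15 (adjusted p = 6.9e-06). In both genes the groups did not overlap, which adds no support, since they were picked for their change or adjusted p. No share of other promoters without overlap is given, here or for the genes below. Past 1 on the log2 scale were also Rpl26, Rpl23 and, in the small subunit, Rps16. Rpl26 was named after its value was seen.

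Rpl5 and Rpl11, which bind Mdm2 together when ribosome assembly fails, were both lower. Rpl5 measured 18.8 and 21.1 CPM in BALB/c iNKT1 against 9.85, 11.7 and 12.3 in BALB/c iNKT2 (−0.82 ± 0.16; adjusted p = 0.00036). Rpl11 measured 40.2 and 39.4 CPM against 26.2, 24.6 and 24.1 (−0.67 ± 0.13; adjusted p = 0.00027). Rpl22, which is needed for the development of αβ T cells, changed by −0.54 ± 0.12 (adjusted p = 0.00088), Rpl38, known for the translation of Hox messages, by −0.80 ± 0.13 (adjusted p = 6.7e-05), and Rpl13a by −0.64 ± 0.12 (adjusted p = 0.00019). Rpl10, which joins the subunit late in its maturation, did not pass (−0.32 ± 0.12; adjusted p = 0.028).

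Among the small subunit genes, 16 of 29 were lower and Rps14 was higher, with a median of −0.51. Rps16 measured 31.2 and 33.7 CPM in BALB/c iNKT1 and 17.4, 14.1 and 16.3 in BALB/c iNKT2 (−1.02 ± 0.14; adjusted p = 1.5e-05). Rpsa, also known as the laminin receptor precursor, measured 47.1 and 48.4 CPM against 27.4, 22.6 and 26.2 (−0.91 ± 0.13; adjusted p = 2.9e-05). In both genes all BALB/c iNKT2 libraries lay below all BALB/c iNKT1 libraries.

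Rps19, mutated in Diamond-Blackfan anaemia, changed by −0.62 ± 0.13 (adjusted p = 0.00089), Rps3, at the channel where messenger RNA enters, by −0.53 ± 0.12 (adjusted p = 0.0011), and the X-linked Rps4x by −0.57 ± 0.15 (adjusted p = 0.0041). Rps6, the target of S6 kinase, did not pass: it measured 62.1 and 65.6 CPM against 48.7, 54.8 and 59.1 (−0.24 ± 0.14; adjusted p = 0.16), although its groups did not overlap. Rps27a, which encodes ubiquitin fused to a ribosomal protein, measured 45.2 and 54.8 CPM against 49.8, 65.8 and 66.3 and did not pass either (0.28 ± 0.17; adjusted p = 0.16).

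The stalk genes, whose proteins recruit the GTPase translation factors to the large subunit, were all lower: Rplp1 by −0.92 ± 0.13 (adjusted p = 2.2e-05), Rplp2 by −0.61 ± 0.12 (adjusted p = 0.00036) and Rplp0 by −0.41 ± 0.12 (adjusted p = 0.0073). Rplp0 was the one member among those that passed whose direction turned under a scaling, to 0.022 with quantile scaling. Lower in BALB/c iNKT2 at adjusted p under 0.01 under all 5 scalings were 8 members. Among them were Rpl21, Rpl7a, Rplp1, Rps16, Rpsa, Rpl27 and Rps21, of which Rpl27 and Rps21 were named for this result. The share of other promoters lower under all 5 scalings is not given, so this count has no background.

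For 13 members (17.8%) the 95% interval of the change lay within 1.5-fold in either direction, against 24.5% of other promoters and 7.74% of all regions. In every comparison such a share depends on the precision of the estimates as well as on the size of the changes. Rps9, named for its narrow range over groups, had an interval of −0.37 to 0.23, with 47.2 and 45.5 CPM in BALB/c iNKT1 and 36.4, 46.9 and 48.9 in BALB/c iNKT2. Leaving out 1 library moved the number of members that passed from 41 to 23 without BALB/c iNKT1 replicate 1 and to 25 without BALB/c iNKT2 replicate 2.

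**Figure D3:**
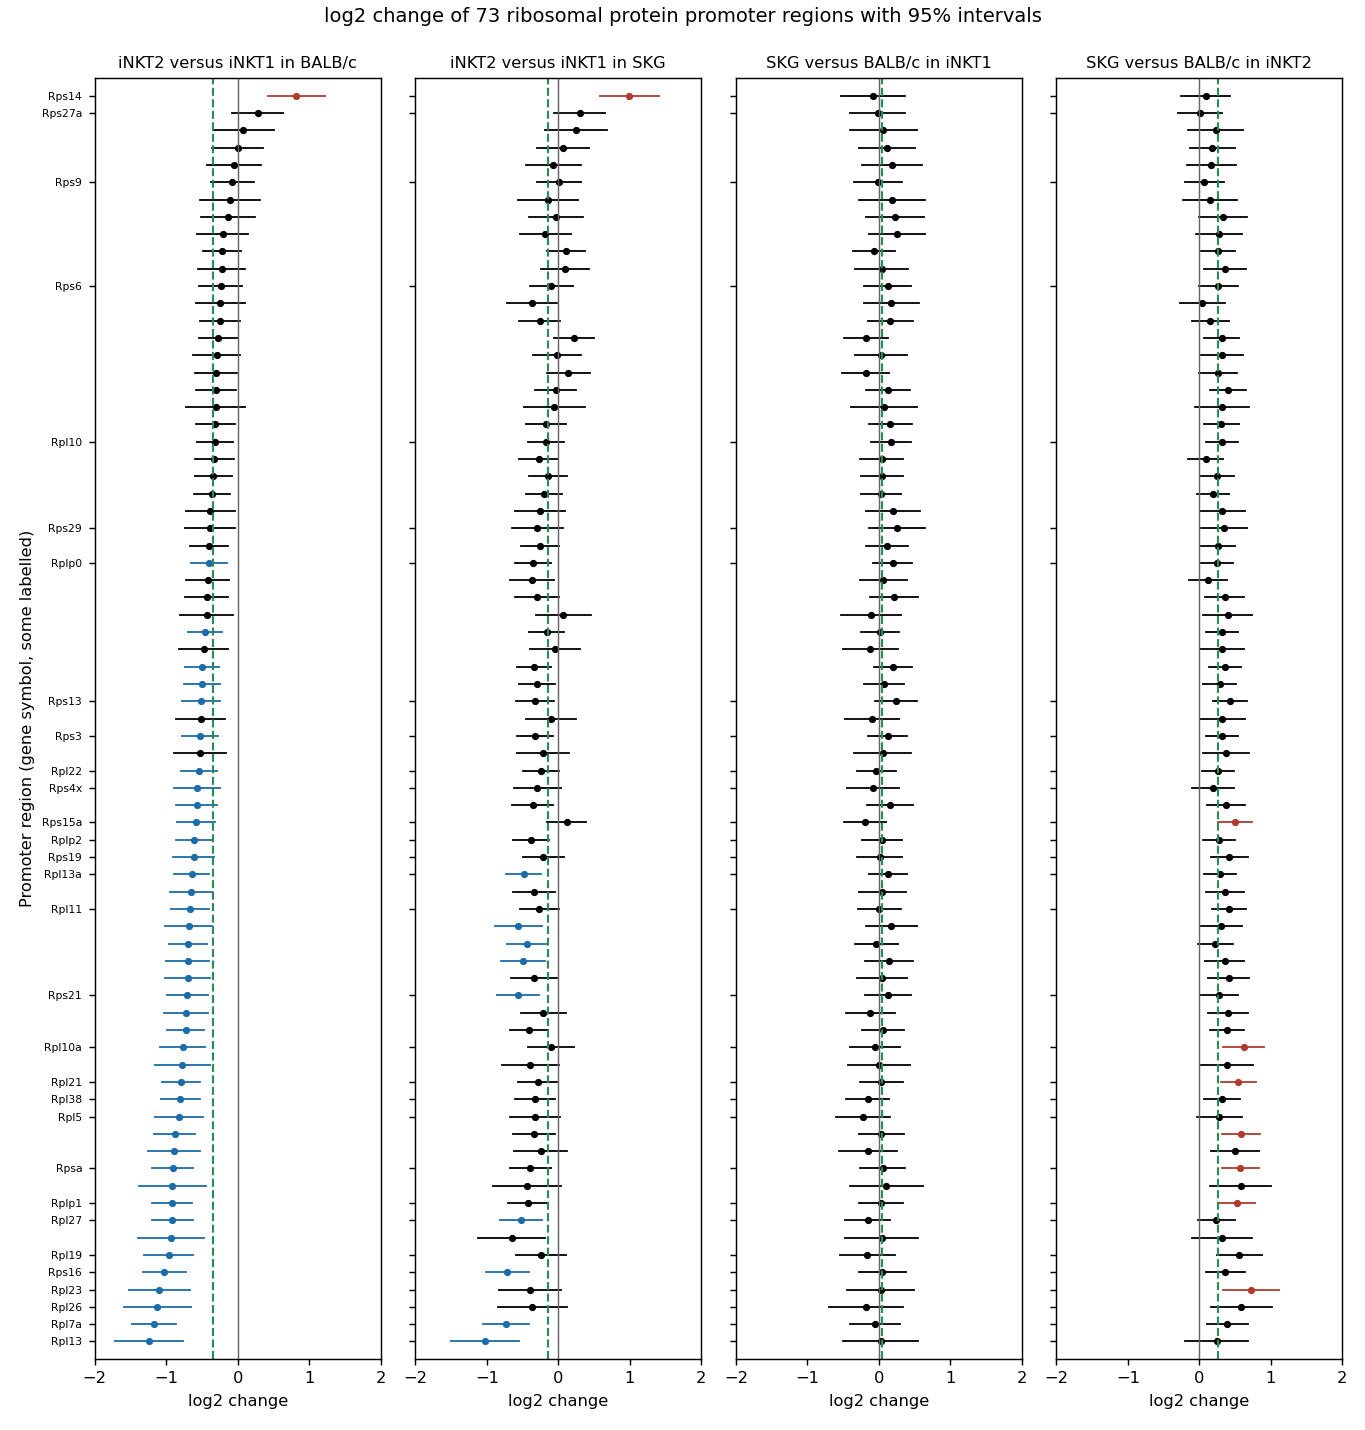
log2 change (points) with 95% intervals (lines) of each of the 73 promoter regions in 4 comparisons, ordered by the change between subsets in BALB/c, with some of the genes labelled; blue and red mark lower and higher at adjusted p under 0.01, and the dashed green line is the median of other protein-coding promoters. Only Rps14 is red between subsets, no region is coloured between genotypes in iNKT1, and 7 are red between genotypes in iNKT2.

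The second comparison asked the same of the subsets in SKG. In SKG iNKT2 cells 9 members were lower and 1 higher (Rps14) than in SKG iNKT1 cells, with a median log2 change of −0.27, a fall of 16.8%. The backgrounds were 17.6% lower, 18.4% higher and 17.1% called at 4-fold over all regions, and 14.1% lower and 8.03% higher among other promoters, whose median was −0.14. The share of members that were lower, 12.3%, was thus near that of promoters. In the same alternatives the members' median lay 0.09 to 0.13 below that of other promoters.

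The 9 lower members were Rpl13, Rpl13a, Rpl14, Rpl27, Rpl7a, Rpl9, Rps16, Rps18 and Rps21, all of which were also lower in BALB/c iNKT2. Rpl13 was again lowest, with 32.6 and 31.2 CPM in SKG iNKT1 and 21.8, 12.9 and 11.8 in SKG iNKT2 (−1.03 ± 0.23; adjusted p = 0.0015). Rps16 measured 34.5 and 32.6 CPM against 22.5, 19.5 and 19.3 (−0.71 ± 0.14; adjusted p = 0.00066), and Rpl7a 48.7 and 45.4 against 33.1, 24.8 and 26.97 (−0.73 ± 0.15; adjusted p = 0.00081). The groups did not overlap in these genes, which had already passed, so this adds no support. Rps21 was the one lower member that passed under all 5 scalings (−0.56 ± 0.14; edgeR adjusted p = 0.0032).

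By subunit, 6 of 40 large subunit genes and 3 of 29 small subunit genes were lower. The stalk genes did not pass, with changes of −0.42 for Rplp1, −0.38 for Rplp2 and −0.35 for Rplp0 (adjusted p = 0.015, 0.015 and 0.022). With library totals 1 member was lower and 2 were higher, with quantile scaling 1 and 3, and with TMM factors from other promoters 1 and 1. With the GC trend removed 6 were lower and 1 was higher. No share of other promoters under these scalings is given, so these counts have no background. The 95% interval lay within 1.5-fold for 36 members (49.3%), against 42.6% of other promoters.

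The count of 10 rested on few libraries. It was 1 without SKG iNKT1 replicate 1, 2 without SKG iNKT1 replicate 2, 18 without SKG iNKT2 replicate 1, and 5 without SKG iNKT2 replicate 2 or replicate 3. DESeq2 passed 16 members and limma-voom 7.

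The third comparison asked whether the Zap70 mutation goes with altered accessibility in iNKT1 cells. No member passed at adjusted p under 0.01, with edgeR, DESeq2 or limma-voom, and none had an unadjusted p under 0.05 with any of the 3. The backgrounds were 0.662% higher, 1.42% lower and 1.01% called at 4-fold over all regions. With edgeR an unadjusted p under 0.05 was reached by 655 of 9843 other promoters and 16196 of 94823 regions. The median log2 change was 0.04, against 0.05 for other promoters, and it lay between −0.013 and 0.08 over the alternatives that left out no replicate, so its sign was not fixed.

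The changes of members ran from −0.22 ± 0.18 in Rpl5 to 0.26 ± 0.18 in Rps29. Rps29 measured 83.6 and 85.1 CPM in BALB/c iNKT1 and 102 and 99.9 in SKG iNKT1, and Rpl5 measured 18.8 and 21.1 against 17.6 and 16.6. The groups did not overlap in either gene, which adds no support, since both were picked as the extremes of the 73 members. The adjusted p-values were 0.55 and 0.61 with edgeR. The smallest adjusted p, 0.42, belonged to Rps13 (0.24).

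The 95% interval lay within 1.5-fold for 65 of 73 members (89.0%), against 63.5% of other promoters and 16.2% of all regions. It lay within 2-fold for all members and for 88.3% of other promoters. The median SE was 0.16 for members, 0.18 for other promoters and 0.33 for all regions, so these shares reflect precision as well as size of change. Rpl11 had an interval of −0.29 to 0.30, Rps9 of −0.35 to 0.32 and Rpsa of −0.26 to 0.37.

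The fourth comparison asked the same of iNKT2 cells. Here 7 members were higher in SKG than in BALB/c and none was lower, with a median log2 change of 0.32, a rise of 24.8%. The backgrounds were 4.02% higher, 10.1% lower and 4.99% called at 4-fold over all regions. Among other promoters 8.27% were higher and 2.03% lower, with a median of 0.26, so the members' share of 9.59% was close to that of promoters. The log2 change was above 0 in all 73 members, as it was in 8391 of 9843 other promoters and 48232 of 94823 regions. The BALB/c iNKT2 libraries of this comparison also enter the first.

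The 7 higher members included Rpl10a, Rpl21, Rpl23, Rplp1, Rps15a and Rpsa. Rpl23, whose protein also binds Mdm2, had the highest change: it measured 7.90, 7.17 and 6.43 CPM in BALB/c iNKT2 and 15.2, 11.3 and 8.90 in SKG iNKT2 (0.73 ± 0.18; adjusted p = 0.0088). Rpl21 had the smallest adjusted p, with 24.9, 30.8 and 28.0 CPM against 39.4, 41.4 and 41.5 (0.55 ± 0.11; adjusted p = 0.0026). Rpsa measured 27.4, 22.6 and 26.2 CPM against 42.4, 34.5 and 36.3 (0.57 ± 0.12; edgeR adjusted p = 0.0029). The groups did not overlap in these genes, which had already passed, so this adds no support.

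Rps27a had the lowest change, 0.0080 ± 0.15, with an interval of −0.30 to 0.32. Replicate 1 of both groups was low in this gene, 49.8 CPM in BALB/c and 49.7 in SKG, against 64.0 to 69.5 in the other 4 libraries. The replicate numbers were taken to pair the libraries of these groups, which the labels do not state. Only replicate 1 stood apart in its correlation between the groups, and the pairing of replicates 2 and 3 is an assumption. With the replicate number as a block 12 members (16.4%) were higher and none lower: the same 7 with Rpl11, Rpl19, Rpl31, Rps13 and Rps19. Under the block 5.89% of all regions and 15.4% of other promoters were higher, so the members' share was again close to that of promoters. Rps14 did not pass (0.09 ± 0.16, interval −0.26 to 0.43), nor did Rps9 (0.07 ± 0.13, interval −0.20 to 0.34).

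This result too moved with the scaling. With library totals the median was 0.19 and 1 member was higher, with TMM factors from other promoters 0.07 and none, with quantile scaling 0.09 and 2, and with the GC trend removed 0.16 and 3. None was lower under any of them. The median of all regions was −0.12, −0.24, 0.10 and 0.02 in the same settings, against 0.01 with TMM. None of the 7 passed under all 5 scalings. The shares of other promoters that passed under these scalings are not given, so the counts have no background.

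The number of higher members was 1 without BALB/c iNKT2 replicate 2 or replicate 3, 2 without BALB/c iNKT1 replicate 1, 4 without SKG iNKT2 replicate 2 or replicate 3, and 11 without SKG iNKT2 replicate 1. It was 1 when the iNKT2 libraries alone were fitted. An unadjusted p under 0.05 was reached by 50 of 73 members, 4441 of 9843 other promoters and 35536 of 94823 regions. The 95% interval lay within 1.5-fold for 32 members (43.8%), against 46.3% of other promoters.

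The fifth comparison tested whether the genotype change differed between the subsets. No member passed at adjusted p under 0.01 in edgeR, DESeq2 or limma-voom, with unadjusted p under 0.05 in 17, 11 and 19 members. The backgrounds were 0.446% higher, 0.479% lower and 0.529% called at 4-fold. With edgeR an unadjusted p under 0.05 was reached by 1762 of 9843 other promoters and 18812 of 94823 regions. The median difference was 0.27 on the log2 scale (iNKT2 minus iNKT1), against 0.21 for other promoters. Rps15a came closest: it measured 46.9 and 47.0 CPM in BALB/c iNKT1, 41.1 and 41.0 in SKG iNKT1, 29.3, 31.2 and 33.9 in BALB/c iNKT2 and 43.4, 48.6 and 41.4 in SKG iNKT2, a difference of 0.70 ± 0.18 (adjusted p = 0.041). Rps15a was named after its value was seen.

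**Figure D4:**
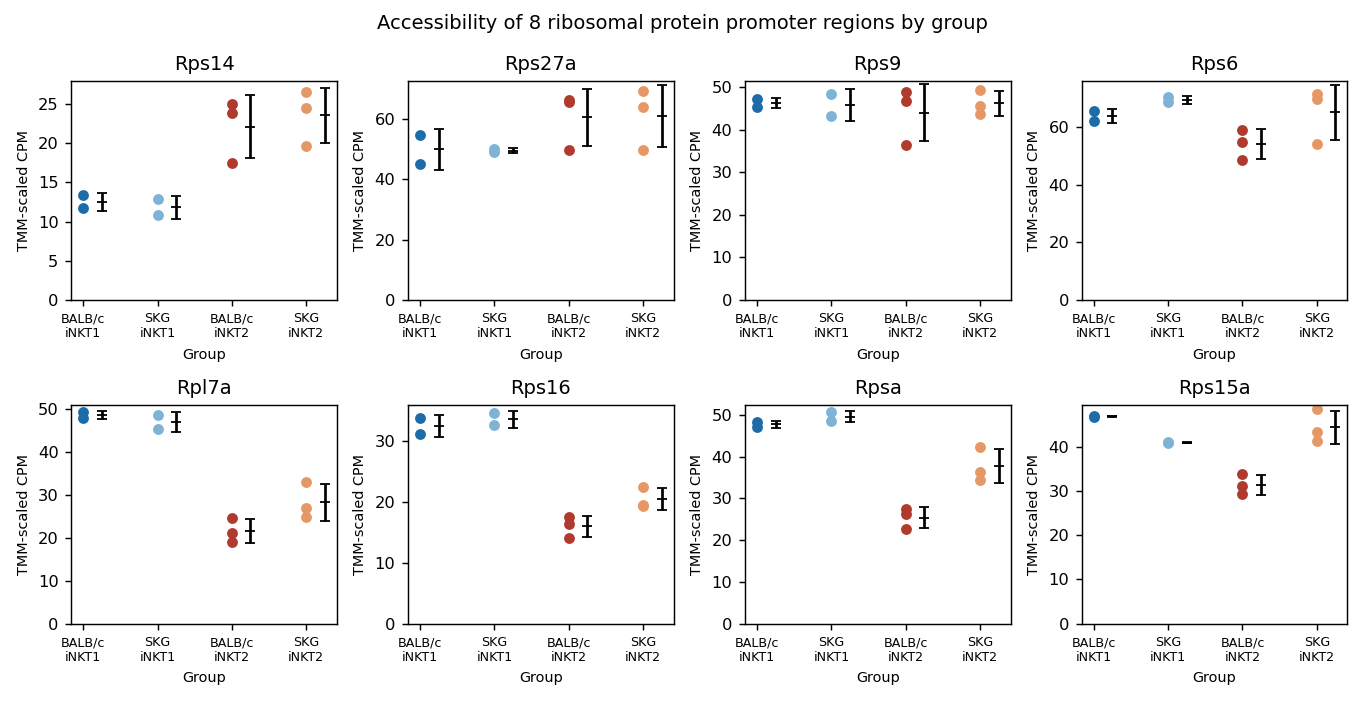
TMM-scaled CPM of 8 ribosomal protein promoter regions in each library (points), with group mean and SD beside them (2 libraries in each iNKT1 group, 3 in each iNKT2 group); all axes start at 0. Rps14 is higher in all iNKT2 libraries, Rps27a and Rps9 overlap across groups, Rps6 in SKG iNKT2 spans the range of most other libraries, Rpl7a, Rps16 and Rpsa are lowest in BALB/c iNKT2, and Rps15a is lowest in BALB/c iNKT2 alone.

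GC content moved with the change between subsets. Over the 73 members Spearman's rho between GC content and log2 change was −0.34 for the BALB/c subsets and −0.25 for the SKG subsets. Over 9843 other promoters it was −0.15 and −0.08, and all points share the 10 libraries. With the change between genotypes rho was 0.28 for members and 0.13 for other promoters in iNKT2 cells, and 0 and −0.11 in iNKT1 cells. With the GC trend removed the median change of the members between subsets in BALB/c went from −0.51 to −0.30 and the number lower from 40 to 22, while the median of other promoters went from −0.35 to −0.10.

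Promoters of other genes of protein synthesis were counted in the same fits. Fau, a ribosomal protein made as a fusion with a ubiquitin-like protein, was lower in BALB/c iNKT2 (−1.17; adjusted p = 0.00015), though its region is also that of Mrpl49, and Rack1, a scaffold on the small subunit, did not pass (−0.36; adjusted p = 0.018). Of 21 other genes whose messages carry a terminal oligopyrimidine tract, mostly translation factors, 14 were lower and none higher in BALB/c iNKT2 (median −0.56), where 23.4% of all regions and 38.1% of other promoters were lower. Among them, named after their values were seen, Eef2, the translocation factor, changed by −1.07 and Eif4b, a helicase cofactor, by −1.06. In SKG 5 of the 21 were lower, against 14.1% of other promoters, and 1, Eef1g (0.44; adjusted p = 0.0052), was higher in SKG than in BALB/c iNKT2.

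Of 34 regions for ribosome biogenesis and RNA polymerase I genes (from a list of 35), 18 were lower in BALB/c iNKT2 (median −0.45) and 2 in SKG iNKT2, against the same 38.1% and 14.1% of other promoters. The 2 were Myc, a driver of ribosome production (−0.76 in BALB/c and −0.61 in SKG; adjusted p = 0.00023 and 0.0018), and Nolc1. In iNKT2 cells 6 of the 34 were higher in SKG, against 8.27% of other promoters, among them Nop58, a core protein of small nucleolar particles (0.54; adjusted p = 0.0035). Of 73 regions for mitochondrial ribosomal protein genes, 33 were lower in BALB/c iNKT2 (median −0.43), 8 in SKG iNKT2 (median −0.11), and 2 were higher in SKG than in BALB/c iNKT2. The shares of other promoters in these 3 comparisons were 38.1%, 14.1% and 8.27%. In iNKT1 cells none of these lists had a gene that passed between genotypes (with edgeR; 2, 1, 1 and 0 had an unadjusted p under 0.05 in the biogenesis, translation factor, mitochondrial and remaining ribosomal protein lists). The median change of each list between subsets in BALB/c lay below the −0.35 of other promoters.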

How the data were processed

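ATAC-seq libraries of sorted thymic iNKT cells were analysed in 4 groups (10 libraries). Per the methods of the study and the submitters' processing notes, the authors aligned reads to mm10 with Bowtie 1.0 keeping unique alignments, trimmed unaligned reads with Trim Galore and aligned them again, removed duplicates and mitochondrial reads, called MACS2 summits per replicate and merged them into 1 set of regions. The deposited values are whole-number insertion counts per region, although they are described as normalized, and no unmapped columns were used.

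Gene starts were taken from GENCODE M21. All 94823 regions were fitted with edgeR 4.0.16 (quasi-likelihood test, TMM factors, R 4.3.3) over the 4 groups, with Benjamini-Hochberg adjustment, and a call needed adjusted p under 0.01 and a 4-fold change. DESeq2 1.42.0, limma 3.58.1 (voom), other scalings, a low-count filter, a replicate block and leaving out each library were alternatives. The scripts were tested on simulated data. In counts simulated with the same spread for every region, 42% of 2-fold rises and 34% of 2-fold falls in SKG iNKT2 passed adjusted p under 0.01 with edgeR. For 4-fold rises and 4-fold falls the shares were 100% and 98%. The members and lists were chosen with earlier results of these data known. The genes named were 18 with well known roles, those of highest, lowest and most significant change in each pairwise comparison, those of highest, middle and lowest level, up to 5 with a shared region, and those with no region; any other gene was named after its values were seen, and some genes are not reported here. The CCAAT, E-box and NRF1 strings and the windows of 150 bases were added after the data were seen.

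The replicate numbers come from the labels, which do not say what they mark. Deviations from the group means correlated in all 3 same-numbered pairs of iNKT2 libraries (r = 0.492, 0.165 and 0.202), and the numbers were taken to pair these libraries. BALB/c replicate 3 correlated more strongly with SKG replicate 2 (r = 0.278) than with SKG replicate 3. BALB/c replicate 2 correlated slightly more with SKG replicate 3 (r = 0.180) than with SKG replicate 2. Only replicate 1 stood apart, and the pairing of replicates 2 and 3 is an assumption that these correlations do not bear out. In iNKT1 r was −0.0060.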

Additional observations from a re-analysis of the deposited data

How the results depend on the processing

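The number of members at adjusted p under 0.01 between subsets in BALB/c (41) was 23 with the GC trend removed, 17 with library totals, 10 with TMM factors from promoters and 17 with quantile scaling. The median was −0.30, −0.23, −0.17 and −0.14 in turn. In SKG (10) the number was 16 with DESeq2, 7 with limma-voom, 3 with library totals, 2 with promoter factors and 4 with quantile scaling. The median was −0.17 with the GC trend removed and −0.085, −0.11 and −0.035 with these 3 scalings. Between genotypes in iNKT2 (7) the number was 3, 1, 0 and 2 under the 4 scalings in the first order, and 1 with the groups compared alone. The median was 0.16, 0.19, 0.069 and 0.085. The difference between subsets in the genotype change had medians of 0.12, 0.17, 0.078 and 0.088. With adjusted p under 0.05 and 2-fold, 5 members were called between subsets in BALB/c and 1 in SKG. No share of other promoters or of all regions at this looser threshold is given, so these counts have no background. Rplp0 reversed between subsets in BALB/c with quantile scaling (0.022). The cause of these shifts was not tested. Apart from the replicate block, no share of other promoters or of all regions that passed is given for an alternative setting. The counts of members under those settings, and with 1 library left out, have no background.

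With the replicate block 12 members were higher in SKG than in BALB/c iNKT2. The block moved no other count of members by over 1.5 times.

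Leaving out 1 library gave 23 to 48 members between subsets in BALB/c (medians −0.51 to −0.43), 1 to 18 in SKG (−0.30 to −0.24), 0 between genotypes in iNKT1 (0.02 to 0.09), 1 to 11 in iNKT2 (0.26 to 0.32) and 0 for the difference (0.18 to 0.29). Groups of 2 then had a lone library, assumed to vary like the others. Of the single-member changes that passed, over all other settings 349 results kept their direction and side of the threshold, 172 kept the direction alone and 1 reversed. The members held at least 132 insertions in every library, and whether depth or the number of libraries limited the calls was not tested.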
